A study of Mus musculus with 8 samples.

Results

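The mRNA of 10 enzymes that build or break down triglyceride was followed in the liver: *Gpam*, *Gpat4*, *Agpat2*, *Lpin1*, *Lpin2*, *Mogat1*, *Dgat1* and *Dgat2* for synthesis, and *Pnpla2* and *Mgll* for hydrolysis. The genes were chosen by symbol, through the GRCm38 annotation of the identifiers in the count table. No threshold on their values was used, but earlier results of these data were known. Each of the 10 symbols had 1 row among the 18095 genes of the table, and all 10 passed the expression filter that left 14866 genes for testing.

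RNA-seq was performed on whole liver from 4 WT males (HFD WT) and 4 males that lacked *Inpp4b*, a lipid phosphatase, in the whole body (HFD *Inpp4b*-/-), all 12 weeks old. Both genotypes shared the high-fat diet (HFD), which the dams received from before mating and the pups after weaning, so a comparison with a low-fat diet was not made here. The sample labels give the background of the mice as C57BL/6 and the methods of the study as FVB. The question was whether the liver of HFD-fed males carried a different amount of these mRNAs when *Inpp4b* was missing.

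*Inpp4b* itself was counted 6, 20, 5 and 8 times in HFD WT replicates 1 to 4 and 33, 10, 9 and 14 times in HFD *Inpp4b*-/- replicates 1 to 4. Libraries labelled as knockout thus did not have fewer *Inpp4b* reads, and every direction given here rests on the labels. The HFD WT libraries held 25893430 to 31427831 counts each, and those of HFD *Inpp4b*-/- 32738435 to 36662531. The 8 hepatocyte markers had a summed level of 81990 to 90850 CPM (counts of a gene scaled to a normalized library total of 1000000) in HFD WT livers and 84820 to 103600 CPM in HFD *Inpp4b*-/- livers, and albumin (*Alb*) was at 52520 CPM or above in each library.

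Liver cells make triglyceride mainly by the glycerol 3-phosphate route. Glycerol 3-phosphate acyltransferases attach the first fatty acid, acylglycerol-phosphate acyltransferases the next, lipins remove the phosphate to give diacylglycerol, and diacylglycerol acyltransferases add the last fatty acid. Monoacylglycerol acyltransferase offers a side entry to diacylglycerol, and breakdown runs in the opposite direction, from adipose triglyceride lipase down to monoglyceride lipase, which frees glycerol and the last fatty acid.

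Of the 10 mRNAs, 1 passed the thresholds for a difference between the genotypes, a call that was lost without any 1 of the 8 libraries. *Mgll*, the monoglyceride lipase, rose by 1.35-fold in HFD *Inpp4b*-/- livers, and the other 9 did not pass the thresholds (edgeR quasi-likelihood test, Benjamini-Hochberg adjusted p under 0.10 over all genes tested, and a fold change over 1.3). The same thresholds were passed by 1.17% of the 14866 genes, 0.552% higher and 0.619% lower in HFD *Inpp4b*-/-. None of the 8 synthesis enzymes was called by edgeR or by DESeq2, although *Agpat2* and *Mogat1* had an unadjusted p under 0.05, as 13.9% of all tested genes did and 6.8% with a higher level in HFD *Inpp4b*-/-. The log2 fold changes of the 10 members had a median of 0.08, with 6 above and 4 below 0, beside a median of 0.0028 over all tested genes, of which 50.4% were above 0. For 6 members (*Gpat4*, *Agpat2*, *Lpin2*, *Dgat1*, *Dgat2* and *Pnpla2*) the 95% confidence interval of the change lay within 1.5-fold in either direction. The intervals of *Lpin1* and *Mogat1* were far wider, and these genes varied most between mice of one genotype. In whole liver, fewer cells of a type and less RNA per cell cannot be told apart.

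**Figure D1:**
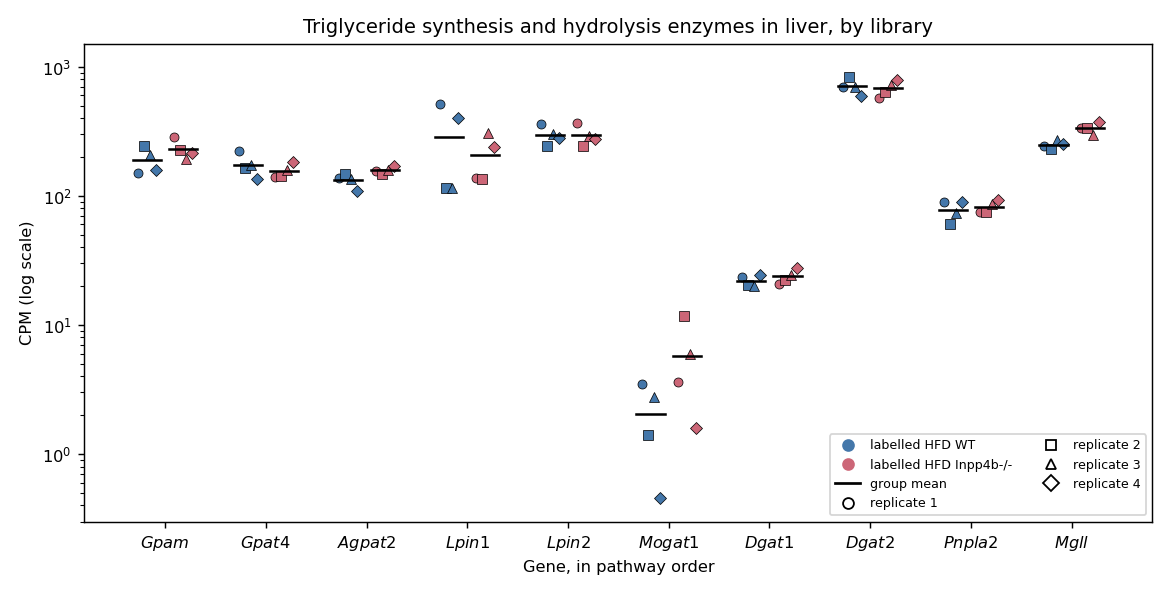
CPM (counts scaled to a TMM-normalized total of 1000000) of each enzyme in the 8 libraries on a log axis, with a point for each mouse (blue HFD WT, red HFD *Inpp4b*-/-, shape by replicate number) and a line for the mean of 4 livers. The genotypes do not overlap for *Mgll* and *Agpat2*, and *Lpin1* and *Mogat1* show the widest scatter within a genotype.

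*Mgll* (ENSMUSG00000033174, GRCm38 chr6:88724412-88828360, plus strand) encodes the enzyme that cleaves monoacylglycerols, the last step of triglyceride breakdown, and also the endocannabinoid 2-arachidonoylglycerol. It was at 242, 229.8, 269 and 253 CPM in HFD WT replicates 1 to 4. In HFD *Inpp4b*-/- replicates 1 to 4 it was at 335, 337, 296 and 372 CPM. The lowest knockout-labelled liver was above the highest WT liver, a pattern of no overlap with knockout higher that 4.63% of all tested genes had, beside 4.09% with knockout lower. The means were 248.5 ± 16.8 and 335 ± 31.0 CPM (SD, n = 4 per genotype), a log2 fold change of 0.43 with a standard error of 0.094 (95% interval of the fold 1.16 to 1.56, edgeR adjusted p = 0.0942). The two-sided exact permutation test on log2 CPM gave p = 0.0286, the smallest that 4 mice against 4 allow and a value that no overlap fixes.

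The call of *Mgll* lay close to the threshold. Leaving out any 1 of the 8 libraries moved the edgeR adjusted p to between 0.12 and 0.234, above the threshold in each of these fits. The log2 fold change was 0.377 to 0.486 in them. Its lowest value, without HFD *Inpp4b*-/- replicate 4, was also just below the fold threshold, which is 0.379 on the log2 scale. With DESeq2 the adjusted p was 0.00612 at a log2 fold change of 0.42, a tool that called 4.04% of the 17016 genes to which it gave an adjusted p, 1.92% as higher. An antisense gene, *Gm26588*, shares 167 exon bases with *Mgll*, or 3.29% of the *Mgll* exons. Whether the counting used strand is not given, so reads in that stretch cannot be told apart, and *Gm26588* itself had a log2 fold change of 0.18 (adjusted p = 0.74).

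**Figure D2:**
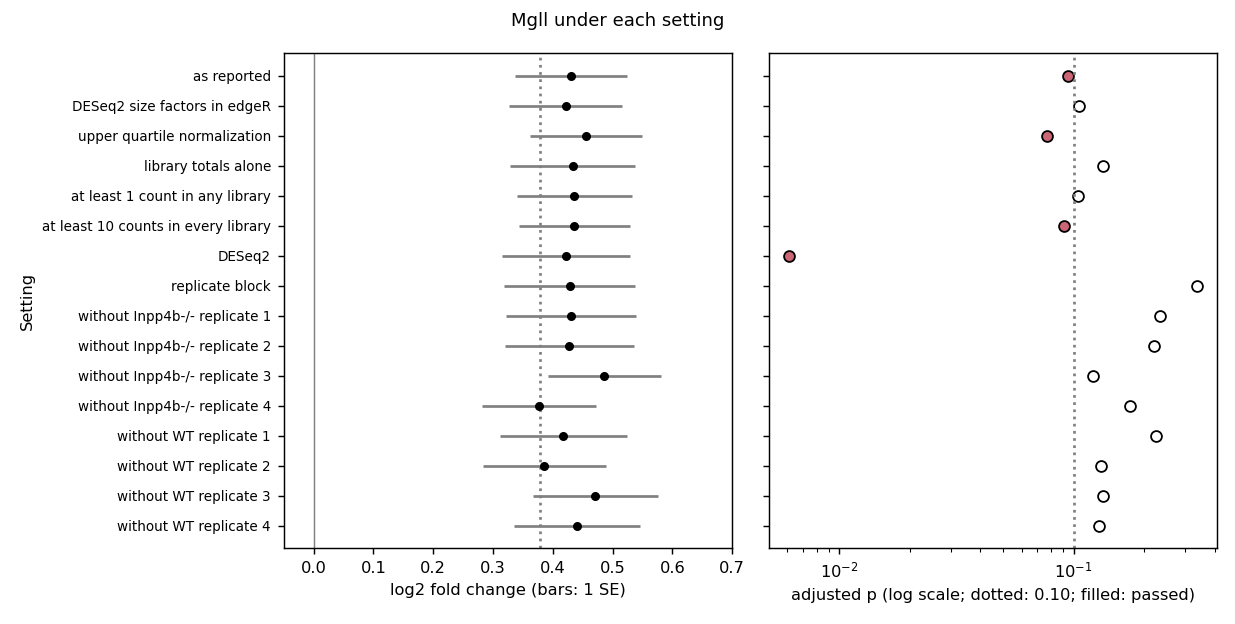
Log2 fold change of *Mgll* with bars of 1 standard error (dotted line at a fold of 1.3), and adjusted p on a log axis (dotted line at 0.10, filled points where both thresholds were passed), for the test as reported and its alternatives. The log2 fold change is 0.377 to 0.486 over the alternatives, at its lowest just below the dotted line, and the adjusted p lies on both sides of its line.

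The 250 bases before the start of *Mgll*, the called enzyme, and of *Lpin1*, the enzyme with the widest spread on the log2 scale after *Mogat1*, are shown because both are among the members with a match to a short factor motif. The *Mgll* stretch is chr6:88724162-88724411 on the plus strand and the *Lpin1* stretch chr12:16610967-16611216 on the minus strand (RefSeq, GRCm38.p6), each written 5′ to 3′. Capitals mark the E-box CACGTG, bound by basic helix-loop-helix factors, 44 to 39 bases before this *Mgll* start. They also mark the nuclear receptor motif AGGTCA 74 to 69 bases before the *Lpin1* start.
Mgll: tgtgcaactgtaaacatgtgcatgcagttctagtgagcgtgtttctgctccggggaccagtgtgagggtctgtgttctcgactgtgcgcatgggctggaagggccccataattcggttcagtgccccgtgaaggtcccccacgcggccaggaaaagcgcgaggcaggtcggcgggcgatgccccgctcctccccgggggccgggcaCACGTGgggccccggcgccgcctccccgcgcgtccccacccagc
Lpin1: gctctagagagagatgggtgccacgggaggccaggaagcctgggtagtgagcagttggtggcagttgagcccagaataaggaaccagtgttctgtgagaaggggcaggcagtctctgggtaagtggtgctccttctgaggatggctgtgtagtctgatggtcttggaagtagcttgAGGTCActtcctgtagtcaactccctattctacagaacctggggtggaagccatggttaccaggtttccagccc

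Promoter windows were given for 7 of the 10 members, 11 windows in all, and *Dgat1*, *Dgat2* and *Gpat4* had none. Besides the matches shown, an E-box lay 9 to 4 bases before 1 start of *Lpin2* and an AGGTCA 196 to 191 bases before 1 start of *Gpam*. The other windows of *Lpin2* and *Gpam* held no match, nor did a second *Mgll* window, before a start at chr6:88724704. On both strands of 32841 promoter windows of the same length, CACGTG occurred in 1978 (6.02%) and AGGTCA in 4607. No member window held the direct repeat of AGGTCA with 1 base between (0.0335% of windows, each also a match of AGGTCA), the D-box TTATGNAA (3.07%), the sterol response element (0.0731%) or the glucocorticoid response palindrome (0.00913%). A match is a description of the letters and not of factor binding.

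*Pnpla2* (ENSMUSG00000025509, chr7:141455198-141460743, plus strand) encodes adipose triglyceride lipase, which takes the first fatty acid from triglyceride. HFD WT replicates 1 to 4 were at 89.1, 60.7, 73.3 and 90.4 CPM, and HFD *Inpp4b*-/- replicates 1 to 4 at 74.7, 74.4, 86.2 and 92.0 CPM. The genotypes overlapped almost entirely, with means of 78.4 ± 14.1 and 81.8 ± 8.75 CPM. The log2 fold change was 0.063 with a standard error of 0.14 (edgeR adjusted p = 0.875), and the 95% interval of the fold, 0.845 to 1.29, includes no change. The first and the last lipase of the series thus had different results, but the difference between their changes was not tested.

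The first acylation is catalyzed by *Gpam*, the mitochondrial enzyme, and *Gpat4*, an enzyme of the endoplasmic reticulum. *Gpam* (ENSMUSG00000024978, chr19:55067268-55127238, minus strand) was at 151, 241, 208 and 158 CPM in HFD WT replicates 1 to 4 and at 283, 228, 192 and 214 CPM in HFD *Inpp4b*-/- replicates 1 to 4. *Gpat4* (ENSMUSG00000031545, chr8:23171265-23208346, minus strand) was at 224, 164, 174 and 134 CPM and at 141, 142, 159.7 and 182 CPM in the same order. Both genes overlapped between genotypes, and their mean differences had opposite signs. The log2 fold change of *Gpam* was 0.27 with a standard error of 0.17 (means 189.5 ± 42.8 and 229 ± 39.0 CPM, adjusted p = 0.515). For *Gpat4* it was -0.16 with a standard error of 0.15 (174 ± 37.2 and 156 ± 19.4 CPM, adjusted p = 0.694). Both values moved with single libraries. The log2 fold change of *Gpam* was 0.16 without HFD *Inpp4b*-/- replicate 1 (adjusted p = 0.777), 0.18 when HFD WT replicate 1 was left out, and 0.40 when HFD WT replicate 2 was (adjusted p = 0.27). That of *Gpat4* was -0.011 without HFD WT replicate 1, -0.24 when HFD *Inpp4b*-/- replicate 4 was left out, and -0.26 when HFD WT replicate 4 was (adjusted p = 0.434). *Gpat4* lies on the same chromosome as *Inpp4b*, with 58.1 Mb between the genes.

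*Agpat2* (ENSMUSG00000026922, chr2:26593057-26604417, minus strand) makes phosphatidic acid, and its loss causes a generalized lipodystrophy with fatty liver. It was at 136, 147, 136 and 109.7 CPM in HFD WT replicates 1 to 4. In the HFD *Inpp4b*-/- livers it was at 156, 148, 158 and 169 CPM. The genotypes did not overlap, although HFD *Inpp4b*-/- replicate 2 and HFD WT replicate 2 were nearly equal. No overlap was found with knockout higher for 4.63% of all tested genes and with knockout lower for 4.09%. The means of 132 ± 15.9 and 158 ± 8.59 CPM gave a log2 fold change of 0.25 with a standard error of 0.10 and a 95% interval of the fold from 1.02 to 1.39. The unadjusted edgeR p was 0.0307 and the adjusted p 0.301. The two-sided exact permutation test gave p = 0.0286, a value that no overlap fixes and that adds nothing to it. *Agpat2* shares 64 exon bases with *Egfl7* on the opposite strand, 3.005% of its exons, and *Egfl7* had a log2 fold change of 0.00095.

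*Lpin1* and *Lpin2* encode the phosphatases that make diacylglycerol, and lipin 1 is in addition a transcriptional coactivator whose hepatic mRNA is known to respond to fasting and glucocorticoids. *Lpin1* (ENSMUSG00000020593, chr12:16535669-16610966, minus strand) was at 514, 114, 115 and 403 CPM in HFD WT replicates 1 to 4. In HFD *Inpp4b*-/- replicates 1 to 4 it was at 138, 135, 309 and 240.3 CPM. HFD WT replicates 1 and 4 were the highest of all 8 libraries and HFD WT replicates 2 and 3 the lowest, so the knockout-labelled livers lay inside the WT range. The highest WT liver was 4.5 times the lowest, against 2.28 times among the HFD *Inpp4b*-/- livers. The means were 286.5 ± 204 and 206 ± 84.5 CPM and the log2 fold change was -0.48 with a standard error of 0.50 (edgeR adjusted p = 0.717). The 95% interval of the fold ran from 0.33 to 1.56, so that neither a fall to below 0.5 nor a rise by 1.5-fold lay outside it at this spread. The log2 fold change was -0.034 without HFD WT replicate 1 and -0.27 without HFD WT replicate 4, but -0.76 without HFD WT replicate 2 and -0.74 when replicate 3 of either genotype was left out, with an adjusted p of 0.468 or more in each.

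Genes that move with feeding state and the clock were read beside *Lpin1*, and *Igfbp1* and *Per1* were named for their small p in these lists. *Igfbp1*, a liver gene that insulin represses, was at 41.6, 5.76, 8.99 and 54.0 CPM in HFD WT replicates 1 to 4, high in the same WT livers as *Lpin1*. It was at 4.97, 3.13, 7.14 and 3.37 CPM in the HFD *Inpp4b*-/- livers, where *Lpin1* replicates 3 and 4 were the higher ones (log2 fold change -2.57, standard error 0.67, edgeR adjusted p = 0.151). The clock gene *Per1* was at 98.7, 67.7, 41.0 and 95.4 CPM in HFD WT and at 42.4, 32.4, 38.4 and 41.7 CPM in HFD *Inpp4b*-/- (log2 fold change -0.97, adjusted p = 0.136). With DESeq2 both passed the thresholds, *Igfbp1* at an adjusted p of 0.0285 and *Per1* at 0.00713. edgeR called *Igfbp1* without HFD WT replicate 2 (log2 fold change -2.92, adjusted p = 0.0518) and *Per1* without HFD WT replicate 3 (-1.17, adjusted p = 0.0272), and neither without any other single library. Other genes of the fasting list ran both ways over the WT livers. *Pck1* was at 4618, 1852, 1645 and 2653 CPM in HFD WT replicates 1 to 4, whereas *G6pc* was at 166.5, 271, 173.3 and 152.4 CPM. Of the 12 fasting genes, 6 were above and 6 below 0 in log2 fold change. The part of feeding state or time of day in the *Lpin1* spread was not tested.

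*Lpin2* (ENSMUSG00000024052, chr17:71182560-71249817, plus strand) was at 361, 241, 301 and 283 CPM in HFD WT and at 367, 245, 291 and 275 CPM in HFD *Inpp4b*-/-. The ranges were nearly the same in both genotypes. Its log2 fold change was -0.010 with a standard error of 0.15 (adjusted p = 0.98), the smallest in size of the 10, and its sign changed when single libraries were left out. The 95% interval of the fold was 0.786 to 1.25.

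*Mogat1* encodes monoacylglycerol acyltransferase 1, whose mRNA is low in normal mouse liver and known to rise in fatty liver. It is the gene of this pathway for which the study also designed a quantitative PCR. From that assay, run on more mice than the RNA-seq, the paper reports a higher *Mogat1* level in *Inpp4b*-/- livers. The primers, written 5′ to 3′ in lower case throughout, frame a product of 68 bases at GRCm38 chr1:78529158-78529225, in coding sequence of exon 5 of 6 in the transcript Mogat1-201.
Mogat1 forward: ttcaatgggagtagccttgc
Mogat1 reverse: gcattatgccaaagtagtgctg
Both primers were found in 3 of the 6 annotated *Mogat1* transcripts and in 0 transcripts of other genes. Both lie in a single exon, so the amplified stretch does not cross a splice junction.

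*Mogat1* (ENSMUSG00000012187, chr1:78510991-78538173, plus strand) was counted 95, 45, 82 and 12 times in HFD WT replicates 1 to 4 and 130, 450, 184 and 57 times in HFD *Inpp4b*-/- replicates 1 to 4. These counts correspond to 3.503, 1.42, 2.76 and 0.461 CPM and to 3.61, 11.8, 5.92 and 1.601 CPM. Of the HFD *Inpp4b*-/- livers, 3 were above the highest WT liver and the other lay inside the WT range. The means were 2.04 ± 1.36 and 5.74 ± 4.43 CPM (SD, n = 4), and the log2 fold change was 1.49 with a standard error of 0.66, the largest of the 10 members. The 95% interval of the fold, 1.01 to 7.82, spans almost no change to a large rise. The unadjusted p was 0.0476 and the edgeR adjusted p 0.354, and DESeq2 gave an adjusted p of 0.37. The two-sided exact permutation test gave p = 0.143. One liver moved the estimate most, and without HFD *Inpp4b*-/- replicate 2 the log2 fold change was 0.86 (adjusted p = 0.631). Within each genotype the highest liver was more than 7 times the lowest (7.6 times in HFD WT and 7.39 times in HFD *Inpp4b*-/-).

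*BC035947* shares 200 exon bases with *Mogat1* on the opposite strand, 12.8% of the *Mogat1* exons. It was counted 16, 11, 2 and 2 times in HFD WT and 5, 46, 33 and 0 times in HFD *Inpp4b*-/- (adjusted p = 0.682), at most 46 reads in any library. *Pparg*, a nuclear receptor known to drive *Mogat1* in fatty liver, was at 1.18, 0.409, 0.909 and 3.80 CPM in HFD WT and at 7.55, 8.02, 2.61 and 2.56 CPM in HFD *Inpp4b*-/-. Both genes were highest in HFD *Inpp4b*-/- replicate 2, but HFD WT replicate 4, the lowest of all libraries for *Mogat1*, was the highest WT liver for *Pparg*. The log2 fold change of *Pparg* was 1.73 with a standard error of 0.65 (edgeR adjusted p = 0.279, DESeq2 adjusted p = 0.0858). Without single libraries it was 1.402 to 2.65, lowest when HFD WT replicate 2 was left out and highest when HFD WT replicate 4 was. The edgeR adjusted p in these fits was 0.105 (without HFD WT replicate 4) to 0.477 (without HFD WT replicate 1), above the threshold in each.

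The last acylation is carried out by *Dgat1* and *Dgat2*, which share no sequence family and are both found in hepatocytes. *Dgat2* (ENSMUSG00000030747, chr7:99153658-99182719, minus strand) was at 698, 826, 702 and 590.3 CPM in HFD WT and at 568, 639, 717 and 792 CPM in HFD *Inpp4b*-/-. *Dgat1* (ENSMUSG00000022555, chr15:76502015-76511953, minus strand) was at 23.4, 20.5, 20.1 and 24.4 CPM and at 20.9, 22.1, 24.5 and 27.4 CPM. The genotypes overlapped for both. The log2 fold change was -0.053 for *Dgat2* (standard error 0.13, adjusted p = 0.897) and 0.10 for *Dgat1* (standard error 0.11, adjusted p = 0.725). The 95% intervals of the fold were 0.784 to 1.19 and 0.902 to 1.28. A change of *Dgat1* or *Dgat2* mRNA by 1.5-fold in either direction therefore lay outside the interval.

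**Figure D3:**
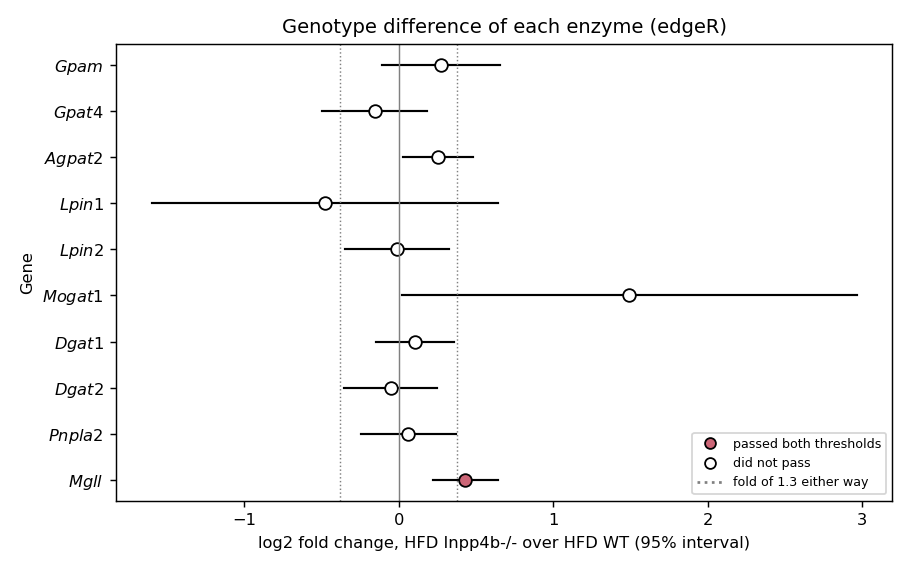
Log2 fold change of the 10 enzymes between HFD *Inpp4b*-/- and HFD WT livers, with points for the edgeR estimate bars for its 95% confidence interval and dotted lines at a fold of 1.3. The intervals of *Mgll* (fold 1.16 to 1.56), *Agpat2* (1.02 to 1.39) and *Mogat1* (1.01 to 7.82) lie above 0, and *Mgll* alone passed both thresholds.

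Across libraries, the members did not move as one block. HFD *Inpp4b*-/- replicate 4 was the highest library for 4 members (*Dgat1*, *Agpat2*, *Pnpla2* and *Mgll*), and HFD WT replicate 2 the lowest for 4 (*Lpin1*, *Lpin2*, *Pnpla2* and *Mgll*). HFD WT replicate 2 was at the same time the highest library for *Dgat2*. HFD WT replicate 1 was the highest for *Gpat4* and *Lpin1* and the lowest for *Gpam*. The coefficient of variation within a genotype ran from 5.45% for *Agpat2* in HFD *Inpp4b*-/- to 77.1% for *Mogat1* in the same livers, and was 71.1% for *Lpin1* in HFD WT.

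**Figure D4:**
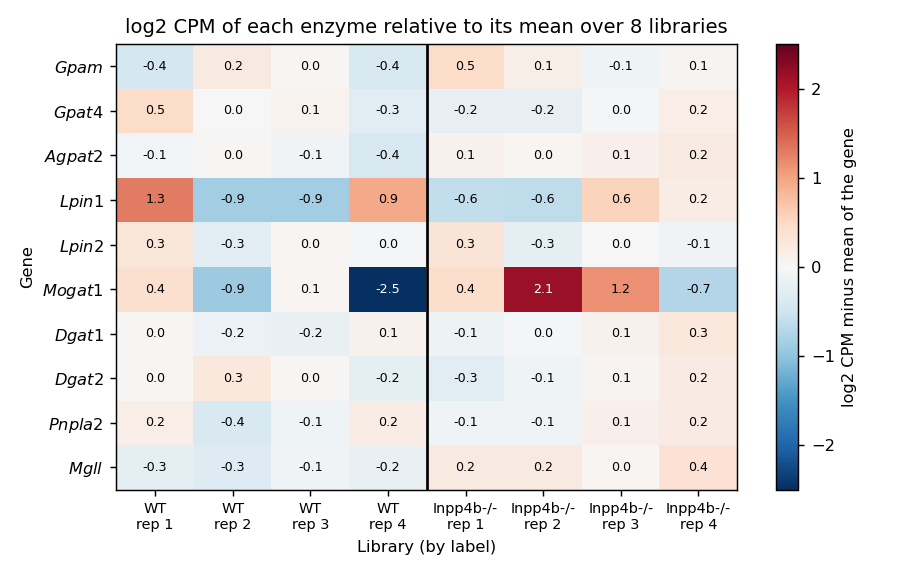
Log2 CPM of each enzyme in each library minus the mean of that enzyme over the 8 libraries, with rows for enzymes and columns for the 4 HFD WT and 4 HFD *Inpp4b*-/- livers. *Lpin1* is high in HFD WT replicates 1 and 4 and *Mogat1* in HFD *Inpp4b*-/- replicate 2 and low in HFD WT replicate 4, while *Dgat1* and *Dgat2* stay near their means.

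Levels of different genes were compared per exon length, as FPKM (CPM divided by the summed exon length of the gene in kilobases). *Dgat2* was the most abundant of the 10, at 228 ± 31.3 FPKM in HFD WT and 220.2 ± 31.5 FPKM in HFD *Inpp4b*-/-, higher than 98.5% of the tested genes. *Agpat2* followed at 62.1 ± 7.46 and 74.0 ± 4.03 FPKM, then *Mgll* at 48.9 ± 3.30 and 65.9 ± 6.10 FPKM. Each of these exceeded the next gene in all 8 libraries, and *Mgll* exceeded *Gpam* in all 8. The middle of the order was not separated. *Gpam* (median 31.7 FPKM) exceeded *Pnpla2* (26.6) in 6 libraries, *Pnpla2* exceeded *Gpat4* (24.2) in 5, *Gpat4* exceeded *Lpin2* (23.5) in 6 and *Lpin2* exceeded *Lpin1* (19.6) in 4. *Lpin1* exceeded *Dgat1* in all 8 libraries, the latter at 7.23 ± 0.702 and 7.77 ± 0.935 FPKM. *Mogat1* was the lowest by median, 2.01 FPKM over the 8 libraries, and was below *Dgat1* in 7 of them, the exception being HFD *Inpp4b*-/- replicate 2.

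Within each step, the members were set beside the other enzymes of the same activity, as a share of the summed FPKM. *Gpam* made up 47.4% ± 7.44 of the 4 glycerol 3-phosphate acyltransferases in HFD WT and 52.8% ± 6.56 in HFD *Inpp4b*-/-, and *Gpat4* 43.5% ± 7.48 and 36.1% ± 4.71. Between these enzymes the order was not fixed, since HFD WT replicate 1 had 36.5% *Gpam* and 54.0% *Gpat4*, whereas HFD *Inpp4b*-/- replicate 1 had 60.5% and 29.9%. *Agpat2* held 54.7% ± 3.06 and 58.5% ± 0.871 of the 6 acylglycerol-phosphate acyltransferases, and *Agpat3* 28.8% ± 2.58 and 27.4% ± 1.22. Among the lipins, *Lpin1* ranged from 31.3% to 63.4% of the 3 genes over the 8 libraries and *Lpin2* from 35.2% to 65.9%. *Dgat2* held 96.0% to 97.6% of its step in every library, a narrower range than any member of the other steps had. *Mogat1* held 87.4% ± 14.4 and 94.9% ± 8.12 of the pair with *Mogat2*, the intestinal enzyme, whose own reads were below the expression filter. These shares are of mRNA and not of enzyme activity.

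**Figure D5:**
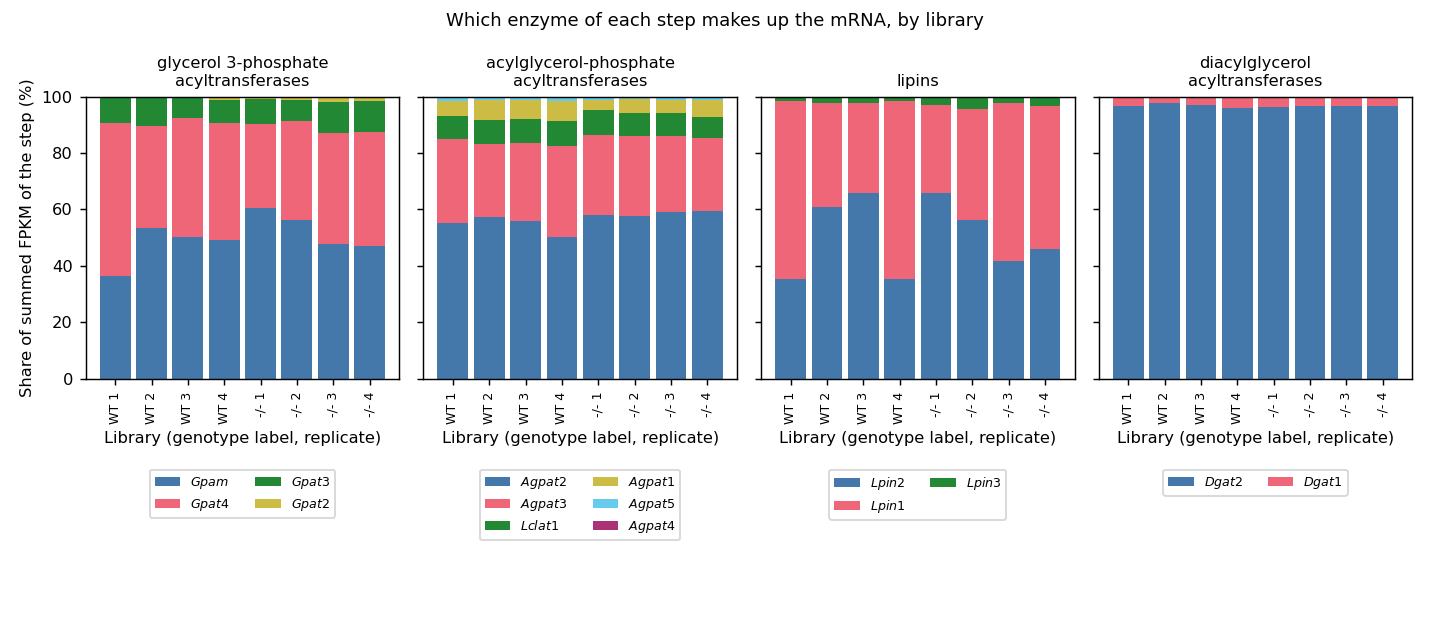
Share of the summed FPKM of each step by enzyme, in percent, with 1 stacked bar per library for glycerol 3-phosphate acyltransferases, acylglycerol-phosphate acyltransferases, lipins and diacylglycerol acyltransferases. *Dgat2* makes up 96.0% to 97.6% of its step in each library, whereas the split between *Lpin1* and *Lpin2* shifts from liver to liver.

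Other enzymes of the pathway were read from a list of 41 genes, 38 of which had a row and 37 of which were tested. Of these, 0 were called higher and 1 was called lower with edgeR, 9 had an unadjusted p under 0.05, and DESeq2 called 3. Over all tested genes, 0.552% were called higher and 0.619% lower, and 13.9% had an unadjusted p under 0.05. DESeq2 called 4.04% of the genes to which it gave an adjusted p. No overlap was seen with knockout higher in 5 of the 37 and with knockout lower in 1. The shares over all tested genes were 4.63% and 4.09%. The log2 fold changes of the 37 genes had a median of 0.011, and 20 were above 0 and 17 below.

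The gene called lower was *Acsl4*, an acyl-CoA synthetase with a preference for arachidonic acid, which supplies activated fatty acid upstream of the acyltransferases. It was at 125, 88.9, 113 and 131 CPM in HFD WT and at 44.9, 53.6, 69.6 and 71.1 CPM in HFD *Inpp4b*-/-, with no overlap. It fell by 0.94 on the log2 scale, with a standard error of 0.17 (edgeR adjusted p = 0.0528). The call was lost without any 1 of HFD WT replicates 1 and 3 and HFD *Inpp4b*-/- replicates 1, 2 and 3 (adjusted p 0.106 to 0.175). *Acsl5*, another acyl-CoA synthetase, was at 249.6 ± 5.19 and 308 ± 33.7 CPM without overlap (log2 fold change 0.30, adjusted p = 0.2).

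Relatives of *Gpam* and of the lipins with few reads came next in the list by p. *Gpat2*, a glycerol 3-phosphate acyltransferase best known from testis, was at 0.627, 1.07, 0.64 and 1.23 CPM in HFD WT and at 1.86, 1.71, 3.15 and 2.58 CPM in HFD *Inpp4b*-/-. *Lpin3* was at 4.24, 2.96, 3.10 and 3.53 CPM and at 4.91, 5.86, 4.99 and 5.98 CPM. Neither gene overlapped between genotypes, but neither passed with edgeR (log2 fold change 1.38 with adjusted p = 0.134, and 0.65 with adjusted p = 0.166), while both passed with DESeq2 (adjusted p = 0.00612 and 0.0285). They held only 1.38% ± 0.449 and 3.26% ± 0.883 of their steps in HFD *Inpp4b*-/-, against 0.587% ± 0.275 and 1.89% ± 0.558 in HFD WT. *Agpat3*, the next enzyme after *Agpat2* in its step, was at 253 ± 10.1 and 269.9 ± 5.66 CPM (log2 fold change 0.093, adjusted p = 0.606).

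On the side of breakdown, 0 of the 18 other lipases and cofactors was called by edgeR and 0 by DESeq2. An unadjusted p under 0.05 was found for 4, as it was for 13.9% of all tested genes. *Lipa*, the lysosomal acid lipase, had the smallest p among them, at 120.3 ± 13.0 CPM in HFD WT and 153 ± 18.8 CPM in HFD *Inpp4b*-/- without overlap (log2 fold change 0.35, edgeR adjusted p = 0.219).

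Of 16 transcription factors and coactivators known to act on lipid genes, 0 were called with edgeR, 2 had an unadjusted p under 0.05 (*Pparg* and *Mlxipl*) and DESeq2 called 1 (*Pparg*). Over all genes, edgeR called 1.17%, 13.9% had an unadjusted p under 0.05 and DESeq2 called 4.04%. *Srebf1*, which encodes the lipogenic factor SREBP-1, was at 148, 429, 323 and 181 CPM in HFD WT and at 291, 299.8, 433 and 583 CPM in HFD *Inpp4b*-/- (log2 fold change 0.57, adjusted p = 0.492, and 0.34 to 0.88 without single libraries, lowest when HFD *Inpp4b*-/- replicate 4 was left out and highest when HFD WT replicate 2 was). It was lowest in HFD WT replicates 1 and 4, the livers in which *Lpin1* was highest and *Gpam* lowest. *Mlxipl*, which encodes the carbohydrate sensor ChREBP, was at 395 to 521 CPM and at 467 to 633 CPM (log2 fold change 0.29, adjusted p = 0.326). *Ppargc1a* had a log2 fold change of 0.33 (adjusted p = 0.515), which was 0.20 without HFD WT replicate 1, 0.22 when HFD *Inpp4b*-/- replicate 1 was left out, and 0.52 when HFD WT replicate 2 was (adjusted p = 0.206).

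Of 13 clock genes, 0 were called with edgeR, 2 had an unadjusted p under 0.05 (*Per1* and *Dbp*) and DESeq2 called 1 (*Per1*), beside 1.17%, 13.9% and 4.04% of all genes. *Dbp* was at 105, 109.9, 139.7 and 109.1 CPM in HFD WT and at 163, 168, 132 and 128 CPM in HFD *Inpp4b*-/- (adjusted p = 0.268).

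Markers of other cells in liver tissue were read because *Mgll*, *Pnpla2* and *Agpat2* are abundant in fat cells. Every one of the 18095 genes of the count table had at least 1 read in all libraries of at least 1 genotype. Of 9 adipocyte markers, 4 had a row (*Fabp4*, *Cidec*, *Lipe* and *Adrb3*) and *Adipoq*, *Lep*, *Plin1*, *Cfd* and *Retn* had none. Summed over these 4, the level was 38.8 to 43.9 CPM in HFD WT livers and 28.5 to 44.4 CPM in HFD *Inpp4b*-/- livers, and edgeR called 0 of them. *Adrb3* alone had an unadjusted p under 0.05 and was called by DESeq2, as lower in HFD *Inpp4b*-/- (log2 fold change -1.13, edgeR adjusted p = 0.258, DESeq2 adjusted p = 0.0747). The other 3 had a log2 fold change above 0. The 8 macrophage markers summed to 65.8 to 176 CPM and to 116 to 214 CPM, with 7 of 8 above 0 in log2 fold change, and 0 were called by either tool or had an unadjusted p under 0.05. Among the 17 stellate, endothelial and bile duct markers edgeR called 0, DESeq2 called 2, and 5 had an unadjusted p under 0.05 (3 stellate and 2 bile duct markers). Over all genes these shares were 1.17%, 4.04% and 13.9%. The stellate markers summed to 168 to 229 CPM in the WT livers and 175 to 237 CPM in the knockout-labelled ones, the endothelial markers to 96.3 to 122 and 81.9 to 126 CPM, and the bile duct markers to 23.7 to 31.6 and 29.8 to 40.6 CPM. In log2 fold change, 4 stellate markers were above and 3 below 0, and 4 bile duct markers were above and 1 below. Of the endothelial markers, 1 was above and 4 were below. Among the 5 markers counted for their unadjusted p, the bile duct marker *Sox9* was lower in HFD *Inpp4b*-/- (log2 fold change -0.71) and the others were higher. The markers called by DESeq2, named after their values were seen, were higher in HFD *Inpp4b*-/- without overlap, as *Mgll* and 4.63% of all tested genes were. *Lrat*, the retinol esterifying enzyme of stellate cells, had a log2 fold change of 0.73 (edgeR adjusted p = 0.164, DESeq2 adjusted p = 0.031). Without single libraries its edgeR adjusted p was 0.0377 to 0.345, lowest when HFD WT replicate 2 was left out. *Spp1*, which encodes osteopontin, had a log2 fold change of 0.54 (edgeR adjusted p = 0.141, DESeq2 adjusted p = 0.036). The 5 red cell markers summed to 114 to 431 CPM in HFD WT livers and 208 to 346 CPM in HFD *Inpp4b*-/- livers. In log2 fold change 3 of them were above and 2 below 0. Of these markers *Hba-a2* was lower in HFD *Inpp4b*-/- (edgeR adjusted p = 0.057, and 0.0101 to 0.178 without single libraries), a gene with a near-identical copy whose reads the counting may split. *Hba-a1* had a log2 fold change of 0.85 (edgeR adjusted p = 0.443). The part of other cell types in the *Mgll* result was not tested.

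The genes whose log2 CPM ran most like that of each member over the 8 libraries are given as a description. They are the highest Pearson r among 12639 protein-coding genes that share libraries and depth, so high values are found by the search itself. For *Mogat1* they were *Dhx36* (r = 0.972), *Rap1a* (0.971), *Mus81* (0.941), *Ints11* (0.94) and *Pnpla8* (0.939). Without the 2 libraries farthest from the *Mogat1* median, r for *Mus81* was 0.727 over 6 libraries, and for the other 4 genes it was 0.863 to 0.953. *Pnpla2* was followed most closely by *Cidec* (r = 0.956, and 0.962 over 6 libraries), a lipid droplet protein, and *Lpin1* by *Thpo* (0.968). For *Mgll* the gene was *Zfp523* (0.977), for *Agpat2* *Bphl* (0.987), for *Gpam* *Cul9* (0.983) and for *Gpat4* *Garem1* (0.96). *Dgat1* ran most like *Glmp* (0.96), *Dgat2* like *Ankrd1* (0.973) and *Lpin2* like *Pank2* (0.924, but 0.668 over 6 libraries, the largest drop among these pairs). For the matches of the other 8 members, r over 6 libraries was 0.864 (*Gpat4*) to 0.986 (*Agpat2*).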

How the data were processed

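Liver libraries of 4 HFD WT and 4 HFD *Inpp4b*-/- males were grouped by their labels. Per the labels and methods, reads (paired ends of 150 bp) were mapped by HISAT2 on GRCm38, HTSeq gave counts per gene, and the authors deposited these counts unnormalized. The deposited normalized signal is each count divided by 1 size factor per library and was not tested. Annotation release and strand setting are not given in the sources used here, and the labels and the methods of the study name different library kits. All 18095 identifiers matched GENCODE M21.

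Counts were fitted with edgeR 4.0.16 in R 4.3.3 (TMM, filterByExpr, quasi-likelihood test, no covariate, Benjamini-Hochberg adjustment over 14866 genes). Calls needed an adjusted p below 0.10 with more than a 1.3-fold change. Library totals were 25893430 to 36662531, and the biological coefficient of variation was 0.251. The exact permutation test used log2(CPM + 0.1) and 70 arrangements (scipy 1.17.1). Nothing says whether the libraries of a genotype came from different litters, so p-values measure the spread between these libraries. The procedure was tested on simulated data.

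The alternatives were DESeq2 1.42.0, other normalizations, filters and thresholds, a fit with the replicate number as block, and fits without 1 library each. Named were the 10 members, called genes, the 5 other pathway genes with the smallest p, enzymes over 10% of a step, *Pparg*, *Srebf1*, *Ppargc1a*, the 2 smallest p of each regulator, fasting and clock list, and the closest genes by Pearson r. The result of 1 gene of the fasting list is not reported here. Members and lists were chosen with earlier results of these data known. Promoter sequences are from RefSeq on GRCm38.p6, and primers from the supplement of the study.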

Additional observations from a re-analysis of the deposited data

How the results depend on the processing

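Of 150 alternative values of the 10 members, 131 kept direction and side of the threshold. The 12 that lost a call were all of *Mgll*, whose log2 fold change was 0.42 with DESeq2 size factors in edgeR (adjusted p = 0.105), 0.43 with library totals alone (0.134) and 0.44 with every gene of at least 1 count kept (0.104). It was 0.377 to 0.486 without single libraries (adjusted p 0.12 to 0.234). *Mgll* kept its call with upper quartile normalization, with a minimum of 10 counts in every library and with DESeq2. The sign turned for 3 members that were never called. *Lpin2* was at 0.016 with upper quartile normalization and at -0.13 to 0.099 without single libraries (positive without HFD *Inpp4b*-/- replicate 2 or 4 or HFD WT replicate 1). *Dgat2* was at -0.13 to 0.025 (positive without HFD *Inpp4b*-/- replicate 1 or HFD WT replicate 2) and *Pnpla2* at -0.052 to 0.14 (negative without HFD WT replicate 2).

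The number of members called was 0, against 1, with DESeq2 size factors, library totals alone, the filter of at least 1 count, the replicate block, an adjusted p under 0.05, and without any single library (0 to 0). Other pathway genes called numbered 3 with DESeq2, 0 with the replicate block or an adjusted p under 0.05, and 0 to 2 without single libraries, against 1. All genes called numbered 688 with DESeq2, 26 with the replicate block, 71 at an adjusted p under 0.05, and 53 to 345 without single libraries, against 174, the lowest without HFD *Inpp4b*-/- replicate 2 and the highest without HFD WT replicate 2. The cause of these shifts was not tested. Replicate numbers did not pair the libraries (correlations of same-numbered deviations -0.17 to -0.0104), and with the replicate block the log2 fold change of *Mgll* was 0.43 (adjusted p = 0.336). Counts of the other 9 members were 596 or more in each library, whereas *Mogat1* was counted 12 to 450 times.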

Other observations

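A further 4 genes of the pathway list, named after their values were seen, had an unadjusted p under 0.05 without passing the adjustment. *Abhd6*, a second monoacylglycerol hydrolase beside *Mgll*, was at 31.1, 38.3, 46.2 and 53.9 CPM in HFD WT replicates 1 to 4 and at 58.4, 55.0, 53.3 and 55.8 CPM in HFD *Inpp4b*-/- replicates 1 to 4. Its log2 fold change was 0.39 (standard error 0.15, edgeR adjusted p = 0.286), close in size to the 0.43 of *Mgll*, but HFD WT replicate 4 reached the HFD *Inpp4b*-/- range. *Gpd1*, which makes glycerol 3-phosphate, was at 276, 255, 336 and 421 CPM and at 480.3, 444, 454 and 328 CPM (log2 fold change 0.40, adjusted p = 0.339). *Ces3b*, a carboxylesterase of the endoplasmic reticulum, was at 671, 562, 575 and 622 CPM and at 573, 759.9, 894 and 992 CPM (log2 fold change 0.41, adjusted p = 0.296).

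*Abhd5*, the coactivator of adipose triglyceride lipase, was at 38.2, 21.5, 33.9 and 26.6 CPM in HFD WT and at 23.6, 21.2, 24.1 and 21.2 CPM in HFD *Inpp4b*-/- (log2 fold change -0.41, standard error 0.16, edgeR adjusted p = 0.3). Without single libraries the log2 fold change of *Abhd5* was -0.56 to -0.28 (edgeR adjusted p 0.0987 to 0.56). It was farthest below 0 without HFD WT replicate 2, the lowest WT liver for *Abhd5*, a fit that called 345 genes in all against 174. In that fit the log2 fold change of *Pnpla2*, whose product is activated by that of *Abhd5*, was -0.052, and a link between the genes was not tested.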
